A study of Mus musculus with 4 samples.

Results

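The genes described here are 33 genes of cholesterol and fatty acid synthesis in mouse bone marrow B cells, out of 24411 gene symbols measured. They were taken by symbol from a list by role: 7 of the mevalonate arm, 11 of the sterol arm, 5 of the control of the SREBP transcription factors, 2 of cholesterol efflux and 8 of fatty acid synthesis. All 33 were present in every table and all 33 passed the filter on low counts. Cells carrying B220, an isoform of CD45 found on B lineage cells, were sorted by flow cytometry from the marrow of tibiae and femurs, and total RNA was sequenced. The 2 wildtype libraries are called WT1 and WT2, and the 2 libraries labelled Arid5b overexpression are called OE1 and OE2. Arid5b encodes an AT-rich interaction domain protein. The labels give no age, sex, strain, promoter of the transgene, litter or batch, and do not say whether the libraries of a group come from separate mice, so p-values measure only the spread between these libraries.

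Facts of the whole series limit what the labels can be used for. Totals ran from 14196665 to 20356404 reads assigned to genes. Arid5b stood at 148.6 and 173.6 CPM (counts relative to all reads of the library) in WT1 and WT2, at 3804 CPM in OE1 and at 136.1 CPM in OE2, so the label of OE2 is not matched by its Arid5b level. WT1 had 24 reads of Xist and 3260 of the Y-linked Ddx3y, and the other 3 libraries had at least 68540 of Xist and at most 1 of Ddx3y. By these transcripts WT1 and WT2 differ in sex and are not from the same mouse. This pair gives the spread where OE1 or OE2 is set alone against wildtype. The 7 B lineage markers checked, Cd79a, Cd79b, Ptprc, Pax5, Ebf1, Blnk and Ms4a1, had reads in every library, with a summed level of 4778 and 5328 CPM in wildtype, 2687 in OE1 and 5058 in OE2. They did not move together in OE1, where limma called Cd79b, Pax5 and Ebf1 higher and the other 4 lower, Ms4a1 by 55.6-fold, Blnk by 8.14-fold and Ptprc by 5.55-fold in normalised reads. Because OE1 and OE2 are unlike each other, each was set alone against the wildtype pair beside the comparison of both groups, and such a comparison is about that library, not about the genotype.

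Cells build cholesterol from acetyl-CoA through mevalonate, farnesyl diphosphate, squalene and lanosterol, and they build fatty acids from the same precursor by way of malonyl-CoA. The membrane-bound transcription factors SREBP1 (Srebf1) and SREBP2 (Srebf2) drive the genes of both routes. When sterols are scarce the escort protein SCAP carries them from the endoplasmic reticulum to the Golgi for cleavage, and when sterols are plentiful the INSIG proteins hold SCAP back. ABCA1 and ABCG1 move cholesterol out of the cell and are classical targets of the oxysterol-sensing LXR receptors. Dividing cells need both products for new membrane.

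The promoters of these genes were read to see which carry letters linked to SREBP control. RefSeq start sites on GRCm38.p6 were at hand for 26 of the 33 genes, and 250 bases upstream of each start were searched on both strands. The letters TCACNCCAC, a form of the sterol regulatory element, were found for 1 of the 26 genes, Hmgcs1, against 1.22% of all 27025 genes with an entry. The shorter CACCCCAC, which overlaps it, was found for Hmgcs1 and Acat2, against 2.98% of all genes. CCAAT, the box bound by NF-Y, was found for 19 of the 26, against 37.5% of all genes. The E-box CACGTG was found for 6, against 6.86%, and the GC box GGGCGG for 22, against 35.4%. Genes with several start sites had more than 1 window, and a match is a description of the letters, not a site of binding. Of the genes that rose in OE1 against wildtype, 5 of 8 with an entry held CCAAT, and of those that fell 6 of 7 did. Of those called neither way 8 of 11 did, so the box was present among genes that rose, fell or did neither. The genes without an entry were Fdps, Fdft1, Sqle, Abcg1, Scd1, Scd2 and Fads1.

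A few promoters are printed because they belong to genes on which the results turn. Hmgcs1 and Acat2 hold the sterol regulatory letters, Fasn and Ebp rose in OE1 and hold CCAAT, Elovl6 had the largest rise, and Abca1 the largest fall among genes with an entry. Capitals mark TCACNCCAC, CACCCCAC, CCAAT and CACGTG on either strand, ATTGG being CCAAT read on the other strand. Bases inside the annotated gene model were left off (22 for Acat2 and 31 for Elovl6). All are given 5′ to 3′ along the gene. The stretches are chr13:119690101-119690350 (plus strand) for Hmgcs1, chr17:12960748-12960975 (minus) for Acat2, chr11:120824548-120824797 (minus) for Fasn, chrX:8193513-8193762 (minus) for Ebp, chr3:129532136-129532354 (plus) for Elovl6 and chr4:53159896-53160145 (minus) for Abca1.
Hmgcs1: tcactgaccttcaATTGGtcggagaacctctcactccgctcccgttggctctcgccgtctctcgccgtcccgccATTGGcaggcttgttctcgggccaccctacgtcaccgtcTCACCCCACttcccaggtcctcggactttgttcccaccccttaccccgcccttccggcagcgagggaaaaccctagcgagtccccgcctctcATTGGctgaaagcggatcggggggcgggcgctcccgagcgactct
Acat2: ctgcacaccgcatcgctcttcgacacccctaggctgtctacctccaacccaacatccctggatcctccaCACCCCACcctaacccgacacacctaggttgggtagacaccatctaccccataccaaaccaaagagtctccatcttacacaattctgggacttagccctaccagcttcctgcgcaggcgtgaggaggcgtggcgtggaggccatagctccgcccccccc
Fasn: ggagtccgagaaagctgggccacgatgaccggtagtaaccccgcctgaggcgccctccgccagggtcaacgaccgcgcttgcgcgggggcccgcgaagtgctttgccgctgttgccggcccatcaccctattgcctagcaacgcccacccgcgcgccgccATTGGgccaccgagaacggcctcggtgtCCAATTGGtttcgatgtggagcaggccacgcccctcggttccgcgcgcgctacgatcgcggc
Ebp: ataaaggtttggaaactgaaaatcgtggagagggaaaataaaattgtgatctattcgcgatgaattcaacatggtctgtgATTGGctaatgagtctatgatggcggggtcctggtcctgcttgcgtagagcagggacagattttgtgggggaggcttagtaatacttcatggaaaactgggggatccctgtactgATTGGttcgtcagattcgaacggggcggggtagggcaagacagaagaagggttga
Elovl6: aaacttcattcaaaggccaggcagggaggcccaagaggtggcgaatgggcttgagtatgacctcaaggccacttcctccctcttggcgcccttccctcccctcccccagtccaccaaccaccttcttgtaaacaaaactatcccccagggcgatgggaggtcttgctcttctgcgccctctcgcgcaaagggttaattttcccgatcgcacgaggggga
Abca1: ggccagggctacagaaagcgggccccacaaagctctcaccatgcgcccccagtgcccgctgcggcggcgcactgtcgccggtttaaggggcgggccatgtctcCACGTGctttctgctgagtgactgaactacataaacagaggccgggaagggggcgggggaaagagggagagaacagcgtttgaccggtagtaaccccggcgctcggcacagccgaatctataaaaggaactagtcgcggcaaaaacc

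In Hmgcs1 the sterol regulatory letters began 137 bases upstream of the start, with CCAAT boxes beginning 237, 176 and 45 bases upstream. In Acat2 the short form began 181 bases upstream. In Fasn the boxes at 62 and 59 bases lie on opposite strands and overlap in CCAATTGG, with another at 90, and in Ebp they began at 170 and 55. Elovl6 held none of the letters searched, and Abca1 held CACGTG at 147 bases and GGGCGG at 163 and 97.

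Levels are given as RPKM, reads scaled to the library total and to the length of the annotated exons, so that genes can be compared. Scd1 dominated the set in wildtype. It took 58.7% and 59.5% of the summed RPKM of the 33 genes in WT1 and WT2, 50.5% in OE2 and 13.1% in OE1. Next in wildtype came Srebf2 at 21.4 and 19.4 RPKM, and Abca1 at 13.8 and 20.8, ranges that overlap, and Insig1 ranked 3 and 5 of the 33. The wildtype libraries lay close together on the deposited log2 scale, with a median gap of 0.20 per gene and a largest gap of 1.28, for Fads2.

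**Figure D1:**
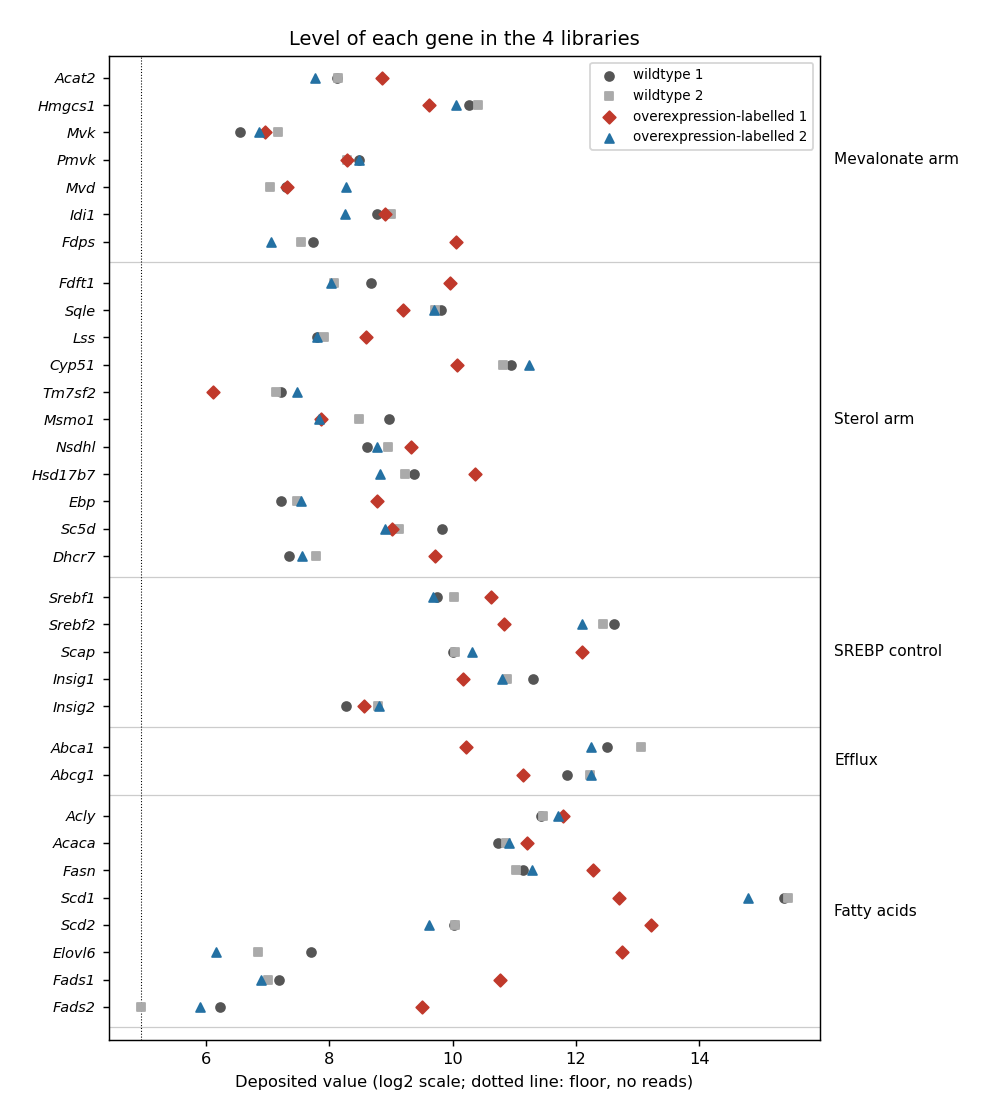
Deposited log2 value (x axis) of each of the 33 genes (y axis, by role) in the 4 libraries, with 1 point per library and the floor of genes without reads as a dotted line. OE1, shown as red diamonds, lies apart from the other 3 libraries for Fdps, Dhcr7, Srebf2, Scap, Abca1, Scd1, Scd2, Elovl6, Fads1 and Fads2.

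The comparison of both libraries labelled overexpression with both wildtype libraries, the contrast the series states, changed no member past the threshold. By limma-trend, a linear model with a variance trend over 12617 genes, with an adjusted p (Benjamini-Hochberg) under 0.05 as the threshold, 0 of 33 members passed where 0% of all genes did, and 0 members against 280 of all genes had an unadjusted p under 0.05. With limma-voom 0 members passed as well. The median difference was 0.26 on the log2 scale over the members and -0.08 over all genes. The groups did not overlap in 14 of 33 members (42.4%), against 42.6% of all genes tested. Leaving out a library of the overexpression label changes this: 22 members passed without OE2 and 1 without OE1.

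OE1 set alone against wildtype differed in 22 of the 33 genes by limma. Of these 12 rose and 10 fell, which is 66.7% called against 61.2% of all genes, 36.4% risen against 26.8%, and 30.3% fallen against 34.4%. The share called is thus near that of all genes, and what is described below is which genes moved and how far. The change reached 2-fold in normalised reads for 11 of the 12 that rose and 5 of the 10 that fell. The share reaching 2-fold was not computed over all genes, so these counts do not set the members apart. Called or not, 18 members lay above both wildtype libraries in OE1, where 41.4% of all genes did, and 12 below both, where 50.9% did. All 22 called genes had the same direction against WT1 alone and against WT2 alone. The calls come from a fit to these same wildtype libraries, so this is not a separate check. With OE1 set against OE2 in place of wildtype, a comparison added after seeing the data, 20 members were called, 13 higher and 7 lower, where 52.6% of all genes were called, 22.4% higher and 30.1% lower. Of the 22 genes called against wildtype, 19 were called against OE2 in the same direction, and Hmgcs1, Sqle and Msmo1 were not called. Both comparisons rest on the same OE1 library, so this overlap is not independent support, and its share over all genes was not computed. Scaling to library totals without Rn45s, the ribosomal RNA precursor, moved the median of all genes from -0.15 to 0.02. It gave 17 members higher and 7 lower, beside 3933 higher and 3708 lower of all 12617 genes. Without any filter on low counts 4 members stayed called in OE1, namely Scap, Scd1, Scd2 and Fads1, beside 2642 of 17905 genes.

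Cells of other kinds and cell division also differed between these libraries. The 16 mitotic genes checked summed to 153.9 and 158.2 CPM in wildtype, 3338 in OE1 and 227.7 in OE2, and all 16 rose in OE1. The 12 neutrophil markers summed to 7.296 and 111.6 CPM in wildtype, 149.8 in OE1 and 1653 in OE2, with Camp, Ltf, Lcn2, Cd177 and Chil3 at 0 in WT1, Elane at 0 in WT2 and none at 0 in the others. Plasmacytoid dendritic cell markers (6 genes) summed to 171.3 and 82.48 CPM in wildtype, 12.89 in OE1, where Klk1 was at 0, and 78.5 in OE2. T and NK cell markers (10 genes) summed to 58.52 and 58.68 CPM in wildtype, 2.683 in OE1, where Cd8a, Nkg7, Gzma and Thy1 were at 0, and 28.44 in OE2. The 10 monocyte and macrophage markers summed to 15.83 and 13.24 CPM in wildtype, 51.7 in OE1 and 13.41 in OE2. In OE1 F13a1 alone made up 37.56 CPM, and the other 9 summed to 15.68 and 12.96 in wildtype, 14.13 in OE1 and 12.67 in OE2. By limma F13a1 and Mrc1 were higher and Csf1r, Adgre1 and Ms4a7 lower in OE1. Adgre1, Cx3cr1, Ms4a7 and C1qa were at 0 in OE1, C1qa and C1qb in WT1, and Cx3cr1, C1qa and C1qb in OE2. The 10 adipocyte and stromal markers summed to at most 1.489 CPM in any library, with Lep and Fabp4 at 0 in all. The 9 erythroid markers summed to 3.921 and 4.79 CPM in wildtype, 6.478 in OE1 and 5.748 in OE2. Among them the globin genes Hbb-bt, Hbb-bs, Hba-a1 and Hba-a2 were listed at 0 in all libraries, while Alas2 had 69 and 65 reads in wildtype, 79 in OE1 and 83 in OE2, and Slc4a1 had 0 and 0, 12 and 21. The part of cell division and of cell makeup in the results below was not tested, and in sorted bulk RNA fewer cells of a type and less RNA per cell cannot be told apart.

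In the mevalonate arm Fdps rose in OE1, Hmgcs1 fell and the other 5 genes did not pass, where 26.8% of all genes rose and 34.4% fell. Fdps makes farnesyl diphosphate, the branch point between sterols and prenyl groups (chromosome 3, 89093588 to 89101959, GRCm38). It stood at 0.92 and 0.787 RPKM in wildtype, 6.69 in OE1 and 0.467 in OE2, so OE1 was far above the other 3. The rise in OE1 was 2.42 log2 units (SE 0.311, limma adjusted p = 1.85e-05), or 7.07-fold in normalised reads. Of its 50-base words, 26.2% also occur in other genes, mostly Gm43738 on the same strand, so its level is uncertain. Hmgcs1 is the cytosolic HMG-CoA synthase whose promoter is shown above, and 11.6% of its 50-base words also occur in other genes, mostly opposite-strand Gm48342. It stood at 6.32 and 7.19 RPKM in wildtype, 4.40 in OE1 and 5.46 in OE2. It fell by 0.72 in OE1 (SE 0.208, limma adjusted p = 0.00912), and OE1 and OE2 did not differ past the threshold (-0.44, limma adjusted p = 0.138).

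Acat2, the cytosolic thiolase at the head of the route, had 2.17 and 2.24 RPKM in wildtype, 4.42 in OE1 and 1.58 in OE2. Its difference in OE1 missed the threshold (0.72, SE 0.312, limma adjusted p = 0.0596), and OE1 was higher than OE2 (1.08, SE 0.373, limma adjusted p = 0.0272), a call lost without a filter and with a mean of 10 reads as the filter. The neighbouring copy Acat3 shares 39.1% of its 50-base words, so its level is uncertain. Mvk, Pmvk, Mvd and Idi1, which phosphorylate mevalonate, decarboxylate it and isomerise the product, differed from wildtype by -0.11 to 0.14 in OE1. Of the 50-base words of Idi1, 25.3% also occur in other genes, mostly Gm13502. In OE2 Mvd was above both wildtype libraries, at 3.36 RPKM against 1.36 and 1.06 in wildtype and 1.55 in OE1, a difference of 1.10 that missed the threshold (SE 0.369, limma adjusted p = 0.172). Idi1 was below both in OE2, at 1.75 RPKM against 2.68 and 3.30, and missed it as well (-0.63, SE 0.291, limma adjusted p = 0.313).

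In the sterol arm 4 of 11 genes rose in OE1, 4 fell and 3 did not pass the threshold, shares near those of all genes (26.8% higher and 34.4% lower). Those that rose were Fdft1, Hsd17b7, Ebp and Dhcr7, which make squalene, reduce the 3-keto group of sterol intermediates, shift the double bond of the sterol ring and carry out the reduction of 7-dehydrocholesterol to cholesterol. Those that fell were Sqle, Cyp51, Tm7sf2 and Msmo1, which oxidise squalene, demethylate lanosterol, reduce the sterol C14 double bond and remove the methyl groups at C4. Lss, Nsdhl and Sc5d did not pass (0.73, 0.53 and -0.46). The rises ran from 1.07 to 2.14 on the deposited log2 scale and the falls from -1.07 to -0.56, and those of Sqle and Msmo1 depended on the settings.

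Dhcr7 had the largest rise of the arm. It stood at 0.461 and 0.714 RPKM in wildtype, 3.72 in OE1 and 0.566 in OE2 (chromosome 7, 143823145 to 143848410). OE1 was above the other 3, by 2.14 log2 units against wildtype (SE 0.335, limma adjusted p = 0.000106) or 5.74-fold. Fdft1, the squalene synthase that commits farnesyl diphosphate to sterols, had 2.04 and 1.28 RPKM in wildtype, 6.16 in OE1 and 1.20 in OE2. It rose by 1.58 in OE1 (SE 0.308, limma adjusted p = 0.00062), and 18.3% of its exon length lies under exons of Ctsb on the opposite strand, so without strand information reads there cannot be told apart. Ebp, on the X chromosome, had 1.01 and 1.34 RPKM in wildtype, 4.56 in OE1 and 1.40 in OE2 and rose by 1.42 in OE1 (SE 0.355, limma adjusted p = 0.00363). Hsd17b7 rose by 1.07 (limma adjusted p = 0.00132), from 2.96 and 2.68 RPKM to 6.91, with 1.92 in OE2.

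Cyp51, the most abundant gene of the arm in wildtype at 10.8 and 10.1 RPKM, was lowest in OE1 at 6.42 and highest in OE2 at 13.3. It fell by 0.81 in OE1 (SE 0.186, limma adjusted p = 0.00206), and OE1 was below OE2 by more (-1.17, limma adjusted p = 0.000457). Tm7sf2 had 47 and 31 reads in wildtype, 9 in OE1 and 62 in OE2 and fell in OE1 (-1.07, limma adjusted p = 0.0357), a call lost with library totals without Rn45s and with no filter. In Msmo1, Sqle and Sc5d both libraries labelled overexpression lay below both wildtype libraries on the deposited scale. The groups did not overlap in 42.6% of all genes. Sqle in OE2 lay only 0.02 below WT2, and Sc5d had 2.62 RPKM in both WT2 and OE1. Msmo1 stood at 1.79 and 1.24 RPKM in wildtype, 0.799 in OE1 and 0.688 in OE2. It fell in OE1 (-0.86, limma adjusted p = 0.0364) and had almost the same difference in OE2 without passing (-0.90, limma adjusted p = 0.204). The call in OE1 was lost under 5 of 10 alternatives. Sqle lay at the threshold (-0.56, limma adjusted p = 0.05), and its call was lost under 9 of 10 alternatives.

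Among the genes that control SREBP, the transcripts of the 2 factors moved apart. Srebf2, the factor tied most closely to cholesterol synthesis (chromosome 15, 82147181 to 82205379), had 21.4 and 19.4 RPKM in wildtype, 6.89 in OE1 and 14.9 in OE2. It fell in OE1 by 1.68 (SE 0.151, limma adjusted p = 6.44e-07), a 3.29-fold lower level, and in OE2 it was lower without passing the threshold (-0.43, limma adjusted p = 0.177). Srebf1, tied most closely to fatty acid synthesis, had 3.51 and 4.45 RPKM in wildtype, 7.51 in OE1 and 3.36 in OE2. It rose in OE1 by 0.74 (SE 0.215, limma adjusted p = 0.00903). As a share of the summed RPKM of both factors, Srebf1 made up 14.1% and 18.6% in wildtype, 18.4% in OE2 and 52.2% in OE1. These are transcript levels, which do not show how much of either protein is cleaved.

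Scap rose and Insig1 fell in OE1. Scap, the escort, stood at 3.23 and 3.41 RPKM in wildtype, 16.1 in OE1 and 4.09 in OE2 (chromosome 9, 110333288 to 110384950). The wildtype pair almost coincided, and OE1 was higher by 2.06 (SE 0.18, limma adjusted p = 4.8e-07) or 4.38-fold, a call kept under all 10 alternatives, while 13.2% of its exon length lies under an opposite-strand gene, 5830462I19Rik. Insig1, the retention protein that is itself an SREBP target, had 1231 and 658 reads in wildtype, 464 in OE1 and 877 in OE2. On the deposited scale it lay below both wildtype libraries in OE1 and OE2 (groups did not overlap in 42.6% of all genes). It fell in OE1 by 0.92 (SE 0.203, limma adjusted p = 0.00158), and the lower level in OE1 than in OE2 (-0.64, limma adjusted p = 0.0363) was lost under 6 of 10 alternatives. Insig2, the form not driven by SREBP in most cells, had 1.80 and 2.82 RPKM in wildtype, 2.56 in OE1 and 2.77 in OE2 and differed by 0.03 in OE1 (SE 0.325, limma adjusted p = 0.946).

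Both efflux pumps fell in OE1, where 34.4% of all genes fell. Abca1, which loads cholesterol onto lipid-poor apolipoprotein (chromosome 4, 53030787 to 53159895), had 13.8 and 20.8 RPKM in wildtype, 3.03 in OE1 and 11.5 in OE2. The fall in OE1 was 2.57 log2 units (SE 0.196, limma adjusted p = 1.29e-07), a 6.30-fold lower level. OE2 was also below both wildtype libraries, but missed the threshold (-0.54, SE 0.193, limma adjusted p = 0.197). Abcg1, which passes cholesterol to high-density lipoprotein, had 12.5 and 16.6 RPKM in wildtype, 8.37 in OE1 and 16.4 in OE2. It fell by 0.91 in OE1 (SE 0.174, limma adjusted p = 0.000539), and OE2 differed from the wildtype mean by 0.20 (limma adjusted p = 0.619).

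**Figure D2:**
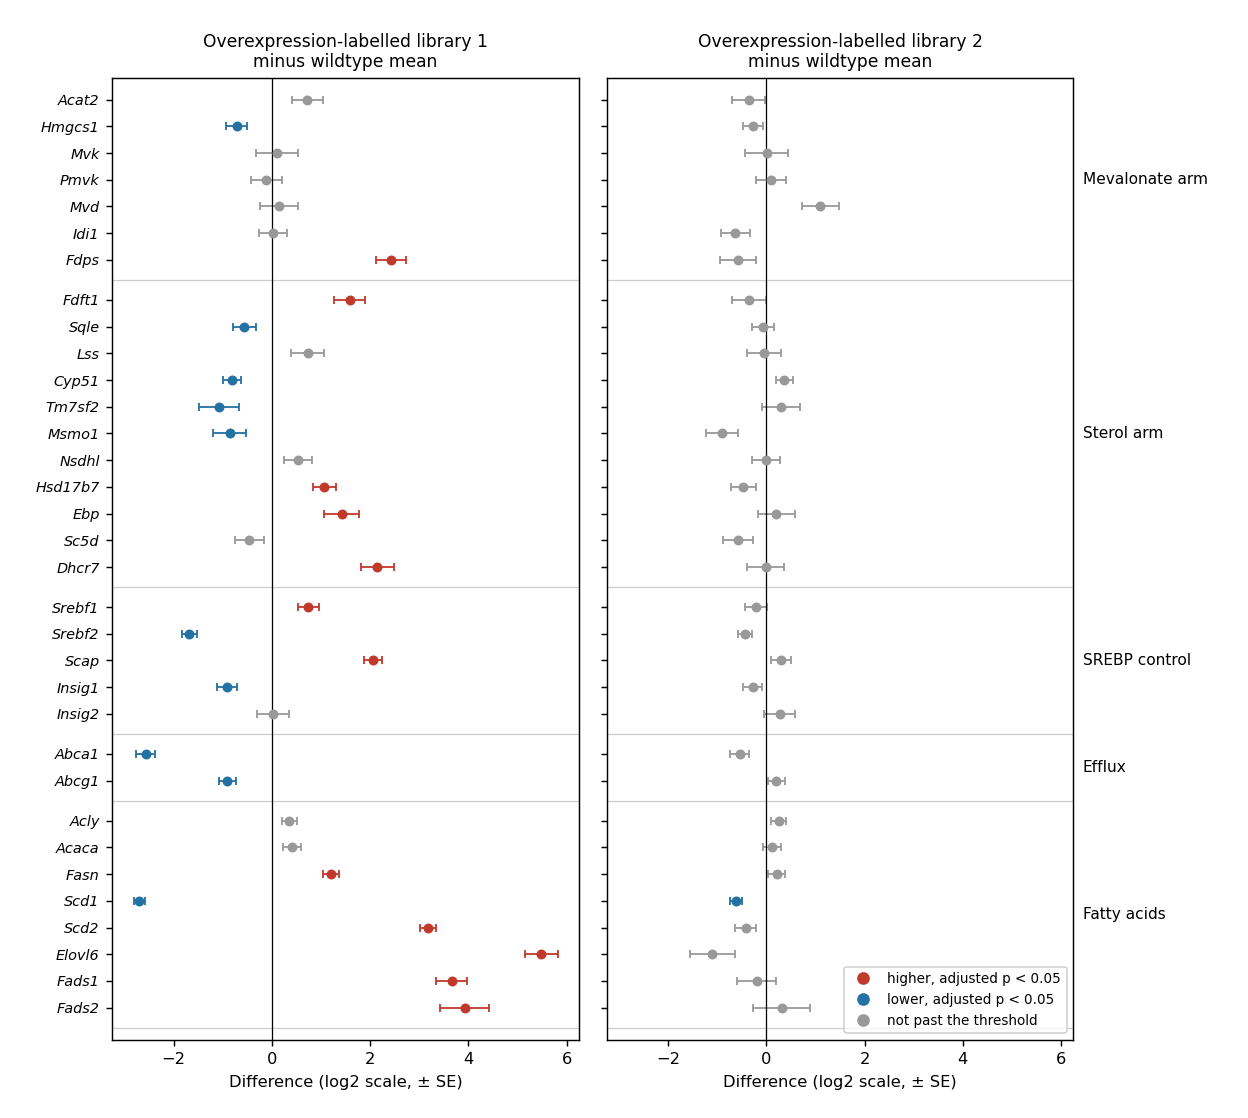
Difference from the wildtype mean (x axis, log2 scale, with the SE of the limma fit) for each of the 33 genes (y axis, by role), with OE1 on the left and OE2 on the right. Red and blue points passed the threshold as higher and lower: 12 and 10 genes in OE1, and only Scd1, as lower, in OE2.

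The largest changes of the whole set were among the fatty acid genes, of which 5 of 8 rose in OE1 and Scd1 fell. Of all genes 26.8% rose in OE1 and 34.4% fell. Acly, Acaca and Fasn carry acetyl-CoA to palmitate, Elovl6 lengthens palmitate to stearate, Scd1 and Scd2 put the first double bond into stearate, and Fads1 and Fads2 desaturate polyunsaturated fatty acids. The median difference of the 8 was 2.19 in OE1 against -0.15 over all genes, and -0.05 in OE2 against 0.01.

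Of the first steps, Acly and Acaca moved little in OE1 and Fasn rose. Acly, which releases acetyl-CoA from citrate, had 12.7 and 13.3 RPKM in wildtype, 18.4 in OE1 and 15.4 in OE2, a difference in OE1 of 0.35 that missed the threshold (SE 0.154, limma adjusted p = 0.0645). Acaca, the carboxylase, differed by 0.41 (SE 0.175, limma adjusted p = 0.0585), and 30.4% of its 50-base words also occur in other genes, mostly Gm5182. Fasn, the fatty acid synthase whose promoter is printed above, rose from 4.98 and 4.68 RPKM to 12.5 in OE1, by 1.20 (SE 0.159, limma adjusted p = 2.5e-05), and had 5.54 in OE2. For each of these 3 genes OE1 and OE2 were both above both wildtype libraries, where the groups did not overlap in 42.6% of all genes. Acaca in OE2 was only 0.05 above WT2 on the deposited scale.

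Elovl6 had the largest change of all 33 genes. It had 76 and 22 reads in wildtype, 2912 in OE1 and 12 in OE2 (chromosome 3, 129532355 to 129638495), or 0.587, 0.241, 29.6 and 0.0917 RPKM. OE1 was 64.4-fold above the wildtype mean, a difference of 5.48 log2 units (SE 0.334, limma adjusted p = 1.43e-08). The fold depends on the wildtype library, at 45.1 against WT1 alone and 112 against WT2 alone. OE2 was below both wildtype libraries without passing (-1.10, SE 0.457, limma adjusted p = 0.265), and the gap between OE1 and OE2 was 6.58 (limma adjusted p = 7.96e-08). In wildtype the gene ranked near the bottom of the set, and in OE1 only Scd2 and Scd1 were higher per length.

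The stearoyl-CoA desaturases moved in opposite directions in OE1. Scd1 (chromosome 19, 44394455 to 44407879) stood at 215 and 229 RPKM in wildtype, 37.5 in OE1 and 144 in OE2. On the deposited scale the wildtype mean was 15.40 ± 0.042 (SD, n = 2), and Scd1 fell by 2.70 in OE1 (SE 0.116, limma adjusted p = 5.14e-10), 6.55-fold. Its neighbour Scd2 (chromosome 19, 44293674 to 44306864) stood at 4.46 and 4.63 RPKM in wildtype, 48.2 in OE1 and 3.30 in OE2, and rose by 3.18 in OE1 (SE 0.167, limma adjusted p = 3.25e-09), 9.59-fold. Scd2 made up 2.03% and 1.98% of the pair in wildtype, 2.24% in OE2 and 56.3% in OE1, and the pair together fell from 219 and 234 RPKM to 85.7 in OE1 and 147 in OE2. Both calls in OE1 were kept under all 10 alternatives. The paralogs share 2.97% of the 50-base words of Scd1 and 2.66% of those of Scd2.

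Scd1 was also the only member past the threshold in OE2. There it differed by -0.61 (SE 0.121, limma adjusted p = 0.0287), where 0.888% of all genes were called lower, 0.769% higher and 1.66% in either direction. The call was lost under 5 of 10 alternatives, among them recomputed size factors and no filter. OE1 was below OE2 as well (-2.09, SE 0.137, limma adjusted p = 6.76e-08). Of all 33 members 7 (21.2%) had an unadjusted p under 0.05, against 15.9% of all genes, and limma-voom also called 1. Called or not, 10 members lay above both wildtype libraries in OE2, where 38.7% of all genes did, and 17 below both, where 37.3% did.

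**Figure D3:**
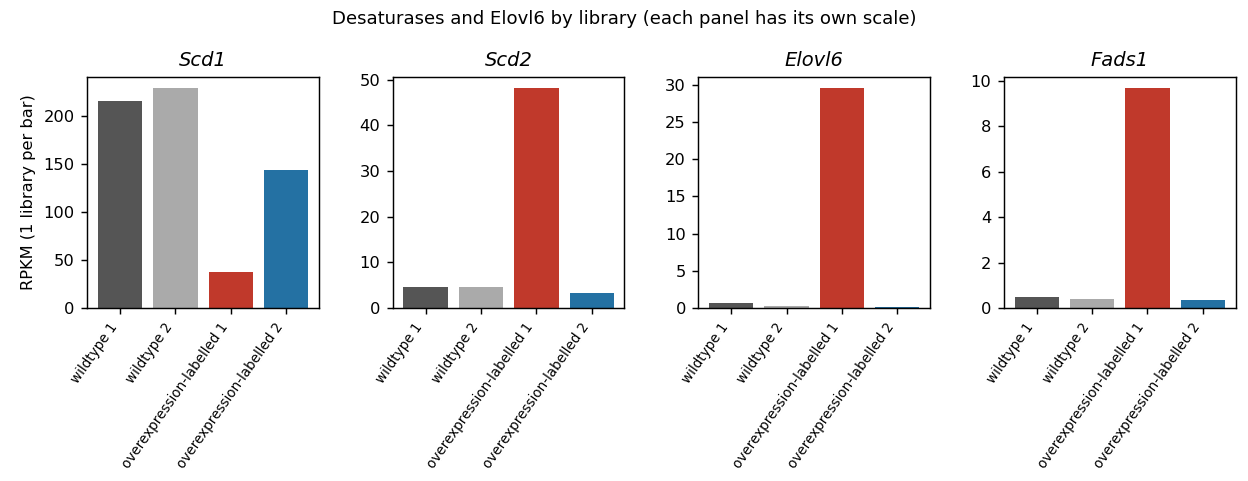
RPKM (y axis, a separate linear scale from 0 in each panel) of Scd1, Scd2, Elovl6 and Fads1 in WT1, WT2, OE1 and OE2, with 1 bar per library and no error bar. Scd1 is lowest in OE1 at 37.5, whereas Scd2, Elovl6 and Fads1 are highest there at 48.2, 29.6 and 9.70.

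Fads1 and Fads2, the delta-5 and delta-6 desaturases that lie near each other on chromosome 19, rose together in OE1. Fads1 (10182888 to 10196877) had 0.464 and 0.395 RPKM in wildtype, 9.70 in OE1 and 0.337 in OE2, a rise of 3.66 (SE 0.319, limma adjusted p = 4.79e-07) or 20.4-fold in OE1. Fads2 (10062765 to 10101746) had 13 and 0 reads in wildtype, 284 in OE1 and 7 in OE2. It rose by 3.92 in OE1 (SE 0.505, limma adjusted p = 1.95e-05), and the level was 25.7-fold that of WT1 alone, with no fold against WT2, which is at 0. Both had 45 reads or fewer in each of the other 3 libraries.

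Genes around these routes were counted from lists set out by role, to be read against the 26.8% of all genes that rose in OE1 and the 34.4% that fell. Of 10 other sterol genes 6 rose in OE1 and 1 fell (median 0.70). Tmem97 rose by 1.75, the sterol carrier Stard4 by 1.50 and Npc2, which binds cholesterol in the lysosome, by 0.95, and the lysosomal exporter Npc1 fell by 0.86. Of 24 other fatty acid genes tested 10 rose and 1 fell (median 0.53), led by Gpam (2.56), which starts glycerolipid synthesis, Me1 (2.28), which supplies NADPH, and Fads3 (1.82), and Elovl4, an elongase of very long chains, fell (-1.32). Of 13 genes of the branch that makes and uses prenyl groups 4 rose and 2 fell. Icmt (1.64) and Zmpste24 (1.53) had the largest rises and Rabggta (-1.37) the largest fall.

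Of 10 genes that cleave or restrain SREBP 3 rose and 5 fell, where 26.8% of all genes rose and 34.4% fell. Sec24d, a coat protein of vesicles leaving the endoplasmic reticulum, fell by 2.29 and the ubiquitin ligase Rnf139 by 1.07, while Erlin1 rose by 0.96. Of 8 LXR and oxysterol genes tested 0 rose and 4 fell (median -0.83), against the same shares of all genes. Arl4c fell by 4.64, from 759 and 328 reads to 3, Cyp27a1 by 2.31 and Smpdl3a by 1.94. Of 20 fatty acid oxidation genes tested 10 rose and 2 fell (median 0.48), again beside 26.8% and 34.4% of all genes, with Etfb up by 2.37, Etfa by 2.18 and Acads by 1.95. In OE2, 1 gene of these 6 lists passed, Etfdh, as higher.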

How the data were processed

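RNA of B220-positive marrow B cells was measured in 2 wildtype libraries and 2 libraries labelled Arid5b overexpression. The genotype label of WT2 has a spelling error and was taken to mean wildtype, and the column header of OE1 differs in a digit from its sample title. STAR, HTSeq, DESeq2 and the mm10 build are named in the submitters' processing notes. Versions, settings, strandedness and annotation are not given in the sources used here. Values were deposited in log2 units and share a floor of 4.949 for genes without reads, the form of a variance stabilizing transformation. Inverting it gave whole reads for 100% of values (within 0.01), and reads, CPM, RPKM and folds come from these. Exon lengths, positions and 50-base words are from GENCODE M21 (GRCm38, the mm10 assembly).

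A gene entered the tests if 2 or more libraries held the equivalent of 10 reads in a library of median size and the 4 together held 15 (12617 genes). Deposited values were fitted with limma-trend (limma 3.58.1, R 4.3.3), two-sided, adjusted over all genes kept. With OE1 or OE2 alone the spread comes from the wildtype pair and limma's prior, so the lone library is assumed to vary as that pair does. The log2 differences understate the change of genes with few reads. The fits were tested on simulated data. A few listed genes are not reported here and were left out of the lists' counts and sums. The members and lists were chosen with earlier results of these data known. Library values are given for the 3 members of each role with the largest difference in OE1, for all SREBP control genes and for any gene called in OE2, and for further members chosen after their values were seen. Of each list of other genes up to 3 with the largest difference are named, and Npc1 and Elovl4, which fell, were added after their values were seen. Alternatives were other filters, scalings, pseudocounts, limma-voom, a robust prior and leaving out each library.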

Additional observations from a re-analysis of the deposited data

How the results depend on the processing

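No paired analysis was possible because the labels carry no replicate numbers, those used here being names given in accession order. For both groups, 0 members were called under each of the 10 alternatives of filter, scaling, log scale, test and prior, and leaving out each library gave 0 to 22. For OE1 the number called ran from 15 (of 23 tested) to 24, against 22, except with no filter, which gave 4. For OE2 it was 0, against 1, with no filter, a mean of 10 reads, recomputed size factors, totals leaving out Rn45s, and a pseudocount of 0.5. The cause was not tested. Under scalings the OE1 calls were 15 higher and 8 lower with recomputed size factors and 16 and 8 with library totals. Of all 12617 genes 3646 were higher and 4013 lower with the former, and 3932 and 4012 with the latter. Over all genes, OE1 calls fell from 7721 to 2642 with no filter, and OE2 calls went from 209 to 614 by limma-voom, 75 with recomputed size factors, 58 by totals without Rn45s, 56 and 128 with log2 of reads plus 0.5 and plus 5, and 0 with no filter or a mean of 10 reads.

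Between the groups, leaving out each library in turn gave -0.36 to 0.72 for Acat2, -0.25 to 0.37 for Mvk, -0.11 to 0.09 for Pmvk, -0.63 to 0.02 for Idi1, -0.58 to 2.42 for Fdps, -0.35 to 1.58 for Fdft1, -0.05 to 0.73 for Lss, -0.81 to 0.36 for Cyp51, -1.07 to 0.30 for Tm7sf2, -0.01 to 0.53 for Nsdhl, -0.47 to 1.07 for Hsd17b7, -0.01 to 2.14 for Dhcr7, -0.21 to 0.74 for Srebf1, -0.11 to 0.41 for Insig2, -0.91 to 0.20 for Abcg1, -0.42 to 3.18 for Scd2, -1.10 to 5.48 for Elovl6 and -0.20 to 3.66 for Fads1. The lowest or highest of each came without OE1 or without OE2, except for Mvk and Insig2, where it came without WT1 or WT2. Pmvk was 0.03, 0.05 and 0.07 with recomputed size factors, totals and totals without Rn45s, and in OE1 0.02 and 0.06 with the last 2. In OE2 by limma-voom Nsdhl was 0.02 and Dhcr7 0.03. Genes under about 50 reads, such as Tm7sf2 and Fads2, are limited by depth.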
